A study of Mus musculus with 2 samples.

Results

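The transcription factors described here are 10 genes of the cardiac fibroblast lineage, *Tcf21*, *Gata4*, *Gata6*, *Tbx20*, *Tbx5*, *Tbx18*, *Hand2*, *Mef2c*, *Wt1* and *Meox1*. They are a list of gene names drawn up with earlier results of these data known, and all 10 were found by their symbols among the 24532 genes of the count table. Their mRNA was measured by RNA sequencing in cultured cardiac myofibroblasts, which lay down collagen in the injured heart. The cells came from hearts of C57BL/6 mice (C57BL/6J, and adult males in the infarction model, per the methods of the study) 3 days after myocardial infarction. Cells that had attached to plastic were kept after magnetic depletion of CD45-positive leukocytes, so no fibroblast marker was used to select them, and the number of hearts behind each culture is not given in the sources used here. Both groups were grown in the same serum-containing medium and transfected at 12.5 nM with a control siRNA (siCtrl) or with 1 siRNA against *Vgll3* (siVgll3), and RNA was taken 72 h later. There was 1 library per condition, so the comparison has no replicate check, and no test of the conditions was possible.

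Several of these factors are best known from the embryonic heart, where GATA, T-box, HAND and MEF2 proteins bind neighbouring sites on DNA and act together on cardiac genes. Cardiac fibroblasts arise largely from the epicardium, the outer cell layer of the heart, in which WT1, TBX18 and TCF21 are made, and TCF21 is needed for fibroblasts to form from it. Fibroblasts of the adult heart keep many of these factors without expressing the contractile genes of cardiomyocytes. VGLL3, the target of the siRNA, is a transcription cofactor that binds TEAD proteins.

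Levels are given as TPM, in which the length of each gene is taken into account, so genes can be compared with each other. The difference between the libraries is M, the log2 ratio of the siVgll3 TPM to the siCtrl TPM, and the mean level is A, the log2 of the mean TPM. A gene was counted as lower at M < −0.5 or higher at M > 0.5, in both cases with A > 0. Brackets after M hold the 95% Clopper-Pearson interval of the read count ratio, moved onto the TPM ratio. These intervals cover counting error only and compare 2 libraries, since reads are not independent molecules and the spread between cultures is unknown. The libraries held 140815237 (siCtrl) and 125789276 (siVgll3) reads on genes. The targeted gene *Vgll3* stood at 202 TPM with the control siRNA and at 84.0 TPM with its own, so 41.6% of its level was left.

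The levels of the 10 factors spanned a 302-fold range in siCtrl. *Tcf21*, a basic helix-loop-helix factor, and *Tbx20*, a T-box factor needed for growth of the heart tube, were the most abundant, at 192 TPM (95% Poisson interval of the reads 189 to 195) and 189 TPM (188 to 191). Of the 14158 genes listed with TPM, 93.9% lay below *Tcf21* and 93.8% below *Tbx20*. *Gata4* followed at 86.9 TPM (85.6 to 88.1) and *Gata6* at 52.0 TPM (51.1 to 53.0), both zinc finger factors of the GATA family. *Hand2*, a basic helix-loop-helix factor, was at 44.1 TPM (43.0 to 45.2), and *Tbx18*, a T-box factor of the epicardium and sinus node, was at 42.6 TPM (41.9 to 43.3). These 6 factors lay above the median gene, which was at 13.98 TPM. The other 4 lay below it. *Wt1*, the zinc finger factor of the epicardium, was at 7.61 TPM (7.23 to 8.004), and *Mef2c*, a MADS-box factor of muscle, was at 4.35 TPM (4.15 to 4.56). *Meox1*, a homeobox factor known from activated fibroblasts of the stressed heart, was at 1.15 TPM (0.982 to 1.34) with 163 reads. *Tbx5*, the T-box factor of the atria and the conduction system, was lowest at 0.635 TPM (0.540 to 0.741) with 160 reads.

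In this order the intervals of neighbours overlapped for *Tcf21* with *Tbx20* and for *Hand2* with *Tbx18*, and for no other neighbours. These intervals hold counting error alone and leave out any error in the gene lengths behind TPM. In siVgll3 no intervals of neighbours overlapped. *Tcf21* was again highest there, at 128 TPM (125 to 131), and *Tbx20* was next, at 105 TPM (104 to 106). The order in siVgll3 differed from that in siCtrl in a single place, with *Tbx18* at 45.1 TPM (44.3 to 45.9) above *Hand2* at 40.8 TPM (39.7 to 41.9). The 10 genes together came to 620 TPM in the control library and 446 TPM after knockdown.

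**Figure D1:**
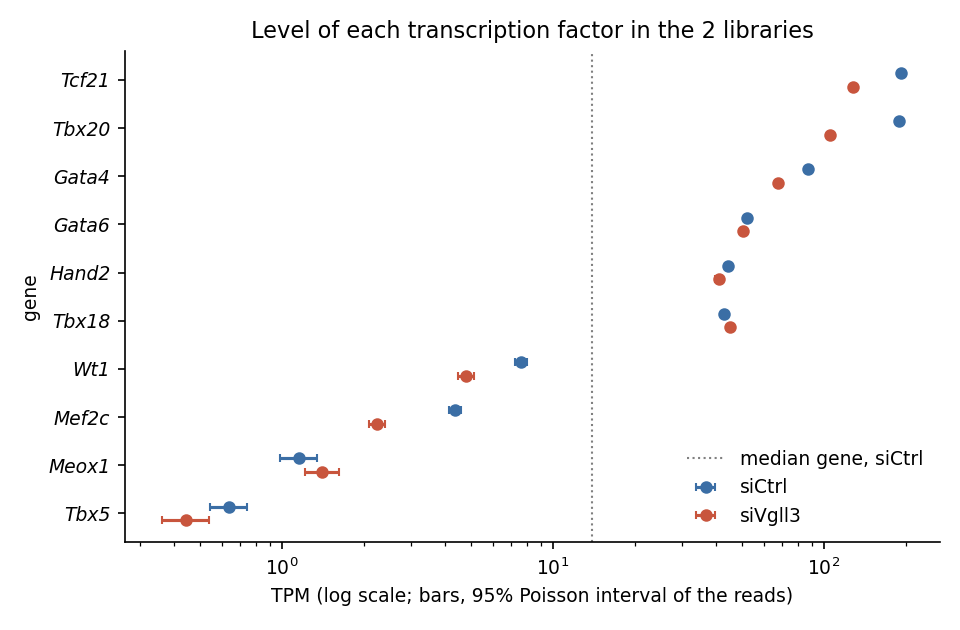
TPM of the 10 transcription factors on a log scale in the siCtrl and the siVgll3 library (points), with 95% Poisson intervals of the reads (bars) and the median siCtrl TPM of all genes (dotted line). *Tcf21*, *Tbx20*, *Gata4*, *Gata6*, *Hand2* and *Tbx18* lie above the median gene in both libraries, and *Wt1*, *Mef2c*, *Meox1* and *Tbx5* lie below it.

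The label of the cells was checked with marker lists. The 15 fibroblast markers summed to 15010 TPM in siCtrl and 12570 TPM in siVgll3, and the 12 myofibroblast markers to 13246 TPM and 14355 TPM. Most of the fibroblast sum came from *Vim*, *Col1a1* and *Col3a1*, at 5343, 4918 and 2980 TPM in siCtrl. In siVgll3 these were at 6541, 2631 and 1644.5 TPM. Among the fibroblast markers, *Pdgfra*, a receptor used to define cardiac fibroblasts, was at 183.5 TPM and 190 TPM. *Acta2*, the smooth muscle actin of myofibroblasts, stood at 3296 TPM in the control and 3866 TPM after knockdown. Of all 24532 genes in the count table, 8626 were listed at 0 reads in both libraries. Of 18 cardiomyocyte genes, 12 were listed at 0 reads in both libraries, among them *Myh6*, *Actn2* and *Ryr2*, which build the sarcomere or release its calcium, and *Nppa*, which encodes an atrial hormone. The most abundant was *Tnnt2*, cardiac troponin T, at 60.0 TPM in the control and 10.4 TPM after knockdown (M −2.53 [−2.64, −2.42]). It supplied most of the list's summed level of 62.0 TPM and 13.4 TPM. So *Gata4*, *Tbx20* and *Hand2* were abundant in libraries in which most of the cardiomyocyte genes were listed at 0. Of 13 leukocyte genes, 7 were listed at 0 reads in both libraries, *Ptprc* (CD45) among them, and the list summed to 15.0 TPM and 8.46 TPM. Most of the siCtrl sum was *Lyz2*, at 10.9 TPM, against 3.13 TPM in siVgll3. Of the 4 leukocyte genes with A > 0, *Lyz2* was lower, *Csf1r* and *Cd14* were higher and *Cd68* lay between. The endothelial list of 10 genes summed to 34.1 TPM and 32.8 TPM, with *Tek* the highest. Of its 6 genes with A > 0, *Tek* was lower, 0 were higher and 5 lay between, with a median M of 0.29. The pericyte and smooth muscle list of 10 genes summed to 118 TPM and 115 TPM, most of it *Mcam*, and the Schwann cell list of 5 genes to 7.45 TPM and 4.39 TPM. The part of these other cells in the results for the factors was not tested.

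Of the 10 factors, 9 had A > 0, and *Tbx5* did not. Among the 9, 4 factors were lower in siVgll3, *Mef2c*, *Tbx20*, *Wt1* and *Tcf21*, and 5 lay between the thresholds. No factor was higher. Across all 11754 genes with A > 0, 11.4% were lower and 5.73% were higher. The whole counting interval lay below −0.5 for the same 4 factors, against 8.31% of all genes. The median M of the 9 factors was −0.36, where the median over all genes was −0.05. In bulk RNA, fewer cells that make a factor and less of its RNA per cell cannot be told apart.

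**Figure D2:**
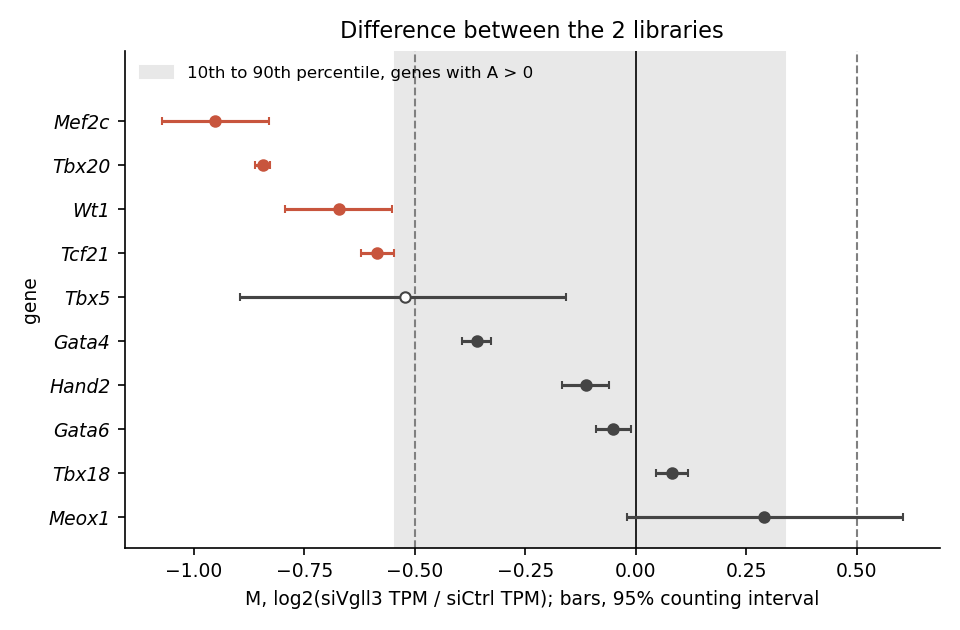
M of each factor (points) with its 95% counting interval (bars), the thresholds of −0.5 and 0.5 (dashed lines) and the 10th to 90th percentile of M over genes with A > 0 (grey band). *Mef2c*, *Tbx20*, *Wt1* and *Tcf21* (coloured) lie with their whole intervals below −0.5. The open point is *Tbx5*, with A below 0.

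T-box factors share a DNA-binding domain and differ in where they act. *Tbx20* (NCBI gene 57246, chromosome 9 of GRCm38 from 24720812 to 24774303) was covered by 76143 reads (189 TPM) in siCtrl and by 39072 reads (105 TPM) in siVgll3. Its M was −0.84 [−0.86, −0.83], so 55.7% of the siCtrl level was left, and 4.64% of genes with A > 0 had a lower M. *Tbx18* (NCBI gene 76365, chromosome 9 from 87702800 to 87731260) had 12725 reads and 12464 reads, or 42.6 TPM and 45.1 TPM. Its M was 0.08 [0.05, 0.12]. M was thus lower for *Tbx20* than for *Tbx18* by more than counting error (difference −0.93, 95% Wald interval on the log counts −0.97 to −0.89). The opposite strand of *Tbx18* carries *D030062O11Rik*, which shares 20.6% of the exon bases of *Tbx18*, and whether the counting used strand is not stated. *Tbx5* (NCBI gene 21388, chromosome 5 from 119796514 to 119885220) had 160 reads and 103 reads, or 0.635 TPM and 0.442 TPM. With an M of −0.52 [−0.89, −0.16] at A −0.89, its interval reached across the threshold, and its difference from *Tbx20* was within counting error (−0.32 for *Tbx20* minus *Tbx5*, −0.68 to 0.04).

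Within the T-box family of 17 genes in the count table, *Tbx20* made up 77.3% of the summed TPM in siCtrl and 64.7% in siVgll3. *Tbx18* made up 17.4% and 27.7%. The summed TPM of the family was 245 in siCtrl and 163 in siVgll3. The gap in *Tbx20* alone, from 189 TPM to 105 TPM, was wider than that of the family, and *Tbx20* was the most abundant T-box gene in both libraries.

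GATA4 and GATA6 bind the same short DNA motif and can stand in for each other in the heart. *Gata4* (NCBI gene 14463, chromosome 14 from 63198914 to 63271712) was covered by 18891 reads (86.9 TPM) and by 13623 reads (67.7 TPM, 66.5 to 68.8) after knockdown. Its M was −0.36 [−0.39, −0.33], between the thresholds, and 77.9% of the siCtrl level was left. *Gata6* (NCBI gene 14465) had 10614 reads and 9484 reads, or 52.0 TPM and 50.3 TPM (49.2 to 51.3). Its M was −0.05 [−0.09, −0.01], equal to the median of all genes to 2 decimals. The log2 difference of *Gata6* was below 0 under 6 of 7 settings of scaling, added TPM or centring. It was at 0.00039 with CPM, so it has no firm direction. M was lower for *Gata4* than for *Gata6* by 0.31 (difference −0.31, −0.36 to −0.26). The ratio of *Gata4* to *Gata6* was 1.67 in siCtrl and 1.35 in siVgll3. Together they made up most of the GATA family, with *Gata4* at 58.6% and 53.4% of its summed TPM and *Gata6* at 35.1% and 39.6%. *Gata2* stood at 6.25 TPM and 5.79 TPM, and *Gata1* was listed at 0 reads.

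TCF21 and HAND2 are basic helix-loop-helix factors of class II, which bind DNA as pairs with the broadly expressed E proteins. *Tcf21* (NCBI gene 21412, chromosome 10 from 22817263 to 22820143) was covered by 15035 control reads (192 TPM) and by 9281 reads (128 TPM) after knockdown. Its M was −0.58 [−0.62, −0.55], so 66.7% of the siCtrl level was left. *Hand2* (NCBI gene 15111, chromosome 8 from 57320983 to 57324517) had 6296 reads and 5388 reads, or 44.1 TPM and 40.8 TPM. Its M was −0.11 [−0.17, −0.06]. The difference of *Tcf21* minus *Hand2* was −0.47 (−0.54 to −0.41). *Hand2os1*, on the opposite strand, shares 19.6% of the exon bases of *Hand2*, so the origin of reads on those bases is uncertain. *Hand1*, the relative of *Hand2* in the left ventricle, was listed at 0 reads in both libraries.

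*Mef2c* (NCBI gene 17260, chromosome 13 from 83504017 to 83667079) had the lowest M of the 10 factors. It had 1733 control reads (4.35 TPM) against 831 reads (2.25 TPM, 2.10 to 2.41) after knockdown, which gives an M of −0.95 [−1.07, −0.83]. Of the siCtrl level, 51.7% was left. The table counts 18 RefSeq transcripts together for this gene, so the transcript behind the reads is not known. Its relatives *Mef2a* and *Mef2d*, broadly expressed MEF2 factors, were more abundant, with M near 0, at −0.06 [−0.10, −0.02] and 0.06 [0.02, 0.10]. *Mef2a* was at 30.3 TPM and 29.0 TPM, and *Mef2d* at 27.6 TPM and 28.8 TPM. The difference of *Mef2c* minus *Mef2a* was −0.89 (−1.02 to −0.77). *Mef2c* was thus a minor part of the MEF2 mRNA, 6.99% of the summed TPM in siCtrl and 3.74% in siVgll3.

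*Wt1* (NCBI gene 22431, chromosome 2 from 105126529 to 105173614) had 1503 control reads (7.61 TPM) against 873 reads (4.78 TPM, 4.46 to 5.10) after knockdown. Its M was −0.67 [−0.79, −0.55], and 62.8% of the siCtrl level was left. *Meox1* (NCBI gene 17285, chromosome 11 from 101877510 to 101894354) had 163 reads and 185 reads, or 1.15 TPM and 1.41 TPM (1.21 to 1.63). It had the highest M of the 10, 0.29 [−0.02, 0.60], and it was the only factor whose interval held 0. Its relative *Meox2* lay the other way, at 3.49 TPM and 2.49 TPM, an M of −0.49 [−0.69, −0.29]. *Meox1* made up 24.8% of the summed TPM of both *Meox* genes in siCtrl and 36.2% in siVgll3.

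**Figure D3:**
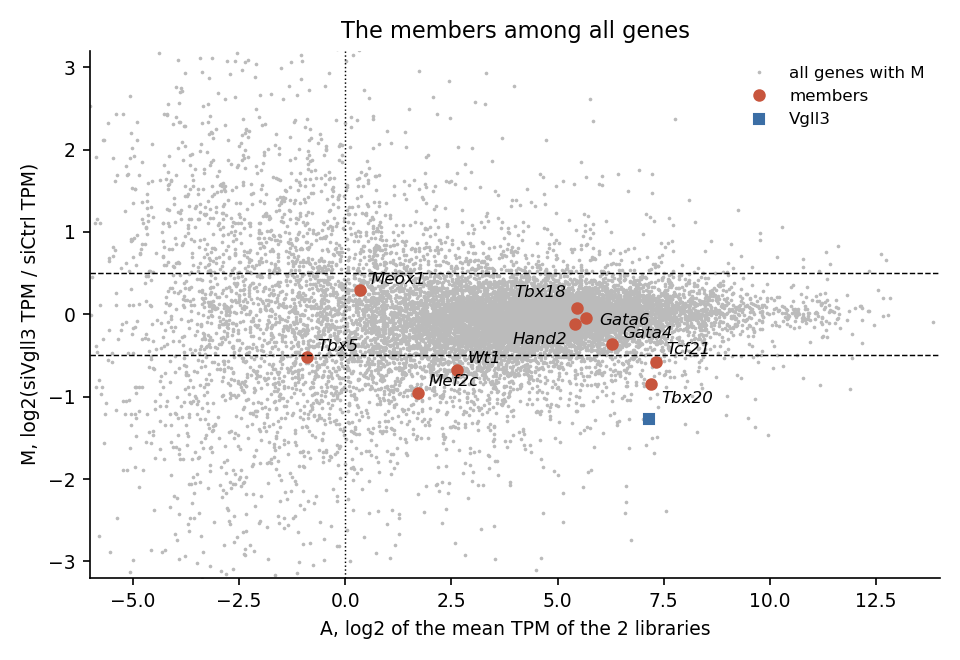
M against A for all genes with M (grey), the 10 factors (red) and *Vgll3* (blue square), with the thresholds on M dashed and A = 0 dotted; 137 genes lie outside the axes. *Tbx20* and *Tcf21* sit in the lower part of the cloud at high A, above *Vgll3*, while *Gata6*, *Hand2* and *Tbx18* sit in its middle. Of genes with A > 0, 4.64% have a lower M than *Tbx20* and 8.93% a lower M than *Tcf21*.

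Promoters are shown for the lower factors that the RefSeq promoter table for GRCm38.p6 holds, so that the DNA before genes with a common direction can be read side by side. Each is the 250 bases before a start site, 5′ to 3′ on the strand of the gene, at chr10:22820144-22820393 (minus strand) for *Tcf21*, chr9:24774304-24774553 (minus strand) for *Tbx20* and chr13:83503784-83504033 (plus strand) for *Mef2c*. The *Mef2c* window precedes the most upstream of the 3 starts in that table, which lies just inside the RefSeq gene, whose first base is 83504017. Capitals mark a match to a searched motif.
Tcf21: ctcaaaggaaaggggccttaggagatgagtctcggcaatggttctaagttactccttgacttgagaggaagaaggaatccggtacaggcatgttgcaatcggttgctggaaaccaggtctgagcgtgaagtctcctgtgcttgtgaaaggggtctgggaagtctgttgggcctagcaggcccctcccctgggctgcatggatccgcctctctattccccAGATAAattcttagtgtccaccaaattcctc
Tbx20: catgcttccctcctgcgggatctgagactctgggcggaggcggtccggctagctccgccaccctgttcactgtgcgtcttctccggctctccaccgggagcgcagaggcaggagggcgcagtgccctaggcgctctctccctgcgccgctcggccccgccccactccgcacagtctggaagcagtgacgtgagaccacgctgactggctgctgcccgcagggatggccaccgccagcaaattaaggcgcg
Mef2c: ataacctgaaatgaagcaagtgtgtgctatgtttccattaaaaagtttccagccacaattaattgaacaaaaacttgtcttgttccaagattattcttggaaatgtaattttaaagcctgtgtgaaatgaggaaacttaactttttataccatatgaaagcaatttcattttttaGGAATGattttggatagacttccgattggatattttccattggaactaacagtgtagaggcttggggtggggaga

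Both strands were searched for 6 motifs, and the share of all 32851 promoters of this length with a match is given with each. These were the TEAD motif CATTCC (12.6%), the GATA motif AGATAA (9.99%), the T-box motif AGGTGT (11.8%), the E-box CAGCTG (13.0%), the MEF2 motif (2.92%) and the CArG box bound by SRF (1.47%). The *Tcf21* promoter held a GATA match, 31 to 26 bases before the RefSeq start. GENCODE places the start of *Tcf21* at 22820174, which makes that match the first bases of the transcript. The *Mef2c* promoter held a TEAD match on the minus strand, 75 to 70 bases before the start used in that table, and of its other starts there 1 had a T-box match, 216 to 211 bases before it. The *Tbx20* promoter held no match and was rich in G and C (68.8%, against 52.4% for *Tcf21* and 33.6% for *Mef2c*). Of the factors that were not lower, *Hand2* had a GATA match 172 to 167 bases before its start and *Tbx18* had no match. No matches overlapped each other, and a match to 6 letters describes the sequence only.

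**Figure D4:**
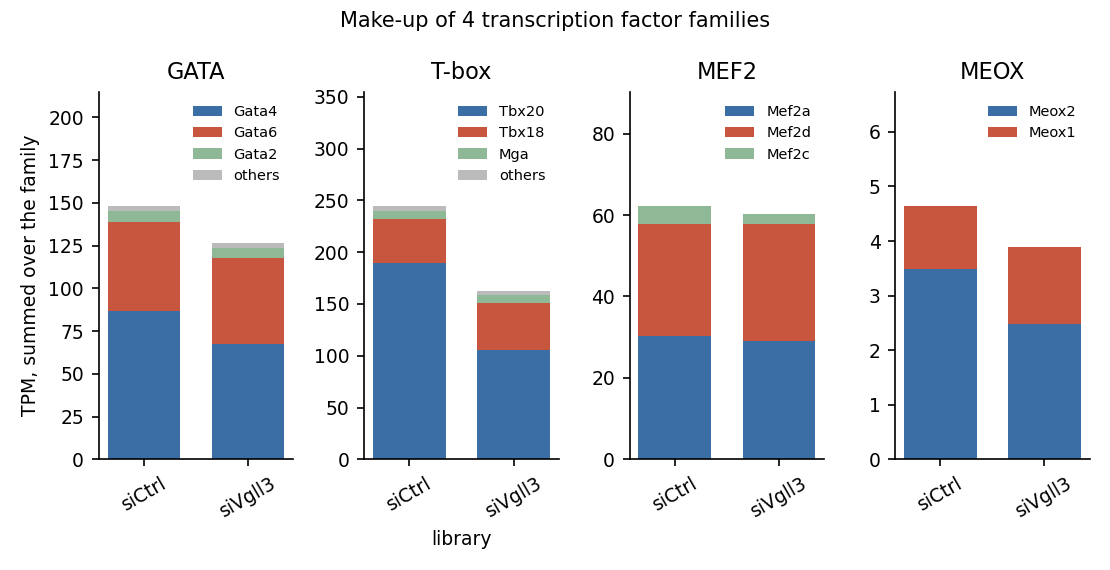
Summed TPM of the GATA, T-box, MEF2 and MEOX families in the siCtrl and the siVgll3 library, split into the most abundant genes and, in grey, the others (1 library per bar, so no error bars). The T-box bar is shorter in siVgll3, 163 against 245 TPM, and the *Tbx20* segment shrinks from 189 to 105 TPM.

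Relatives of the factors, from the same families or with like DNA-binding domains, numbered 34 in the count table and 14 at A > 0. Of these, 4 were lower, 1 was higher and 9 lay between, and their median M was −0.08. For this and the lists below, the shares over all genes with A > 0 were 11.4% lower and 5.73% higher. The most abundant was *Twist1*, a helix-loop-helix factor of mesenchyme, at 47.8 TPM and 44.5 TPM with an M of −0.10. *Egr1* and *Egr3*, growth-response factors with zinc fingers like those of WT1, were both lower, with M of −0.52 [−0.57, −0.47] and −0.68 [−0.80, −0.56]. *Msc*, a close relative of *Tcf21*, had the lowest M, −2.41 [−2.88, −1.96], at 2.50 TPM and 0.471 TPM. *Tbx2*, a T-box repressor, was at −0.54 [−0.72, −0.37]. *Gata3* was the higher gene, at 2.04 TPM and 2.91 TPM, an M of 0.51 [0.32, 0.70]. *Gata5*, which the filter on A left out, had 207 control reads and 28 after knockdown.

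Partners and cofactors of these proteins numbered 25 in the count table and 20 at A > 0, with a median M of −0.18. Of these, 3 were lower, none was higher and 17 lay between, against 11.4% lower and 5.73% higher over all genes. The lower ones were *Hdac5*, a histone deacetylase that holds MEF2 inactive, at −0.76 [−0.82, −0.70], *Id4* at −0.71 [−0.86, −0.56] and *Tcf4*, an E protein, at −0.60 [−0.63, −0.56]. The E proteins *Tcf3* and *Tcf12* stood at 0.04 and −0.01. *Id3*, which takes E proteins away from their partners, was the most abundant of the list, at 849 TPM and 710 TPM with an M of −0.26 [−0.28, −0.24]. *Basp1*, a corepressor of WT1, was at 205 TPM and 212 TPM, and *Id1* at 150 TPM and 155 TPM. *Zfpm2* (FOG2), the partner of GATA4 in the heart, was at 18.3 TPM and 16.1 TPM with an M of −0.18. *Nkx2-5*, the homeobox partner of GATA4 and TBX5 in cardiomyocytes, had 9 control reads and 12 after knockdown.

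Retinoic acid, made in the epicardium by the enzyme of *Aldh1a2*, acts on epicardial cells that form fibroblasts. Of 18 genes of its pathway, 14 had A > 0, with 3 lower, 2 higher, 9 between and a median M of −0.27. *Dhrs3*, which turns retinal back into retinol, was lower, at 105 TPM and 50.7 TPM with an M of −1.05 [−1.09, −0.999]. *Aldh1a3*, another enzyme of retinoic acid synthesis, was at −1.07 [−1.18, −0.96], and the receptor gene *Rara* at −0.69 [−0.76, −0.62]. *Cyp26b1*, which breaks retinoic acid down, was higher with an M of 1.35 [1.16, 1.54], and *Rdh10*, which makes retinal, was at 0.82 [0.71, 0.92]. The abundant *Aldh1a1* lay between the thresholds, at 255 TPM and 210 TPM with an M of −0.27 [−0.30, −0.25].

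Markers of the epicardium and of mesothelium, the cell sheet it belongs to, went both ways. Of 14 with A > 0, 6 were lower, 3 were higher and 5 lay between, with a median M of −0.25 and summed levels of 223 TPM in siCtrl and 175 TPM in siVgll3. *Aldh1a2* itself was the most abundant, at 93.3 TPM and 84.4 TPM with an M of −0.14 [−0.18, −0.11]. *Upk3b*, a mesothelial membrane protein, was at 31.6 TPM and 9.89 TPM, an M of −1.68 [−1.77, −1.58]. *Sema3d* was at −1.21 [−1.25, −1.16] and *Rspo1* at −1.73 [−2.10, −1.37]. The higher ones were the keratins *Krt19* and *Krt7* and the mesothelial antigen gene *Msln*, at 2.56 [2.36, 2.75], 1.93 [1.68, 2.19] and 1.91 [1.69, 2.14]. *Cdh1*, the E-cadherin of epithelia, had 3 control reads and was listed at 0 after knockdown. The part of epicardial cells in these values was not tested.

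Fibroblast markers had a median M of 0.00467 over 14 genes with A > 0, with 5 lower, 1 higher and 8 between. The lower ones were *Dpt* at −1.90 [−1.99, −1.81], *Lum* at −1.23 [−1.27, −1.18], *Dpep1* at −0.98 [−1.02, −0.94], *Col1a1* at −0.90 [−0.91, −0.90] and *Col3a1* at −0.86, genes of the matrix or the cell surface. The higher gene was *Thy1*, a surface marker, at 0.72 [0.69, 0.75]. Myofibroblast markers had a median of −0.05 over 12 genes, with 3 lower, 2 higher and 7 between. *Postn* and *Fap* were lower, at −1.22 [−1.23, −1.20] and −1.32 [−1.46, −1.18], as was *Ltbp2* at −0.51. The smooth muscle genes *Cnn1* and *Tagln* were higher, at 1.13 [1.09, 1.18] and 0.52 [0.52, 0.53]. The pericyte and smooth muscle list did not share that direction. Of its 3 genes with A > 0, 2 were lower, 0 were higher and 1 lay between. The lower ones were *Des* at −1.21 [−1.36, −1.07] and *Notch3* at −0.82 [−0.88, −0.76].

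**Figure D5:**
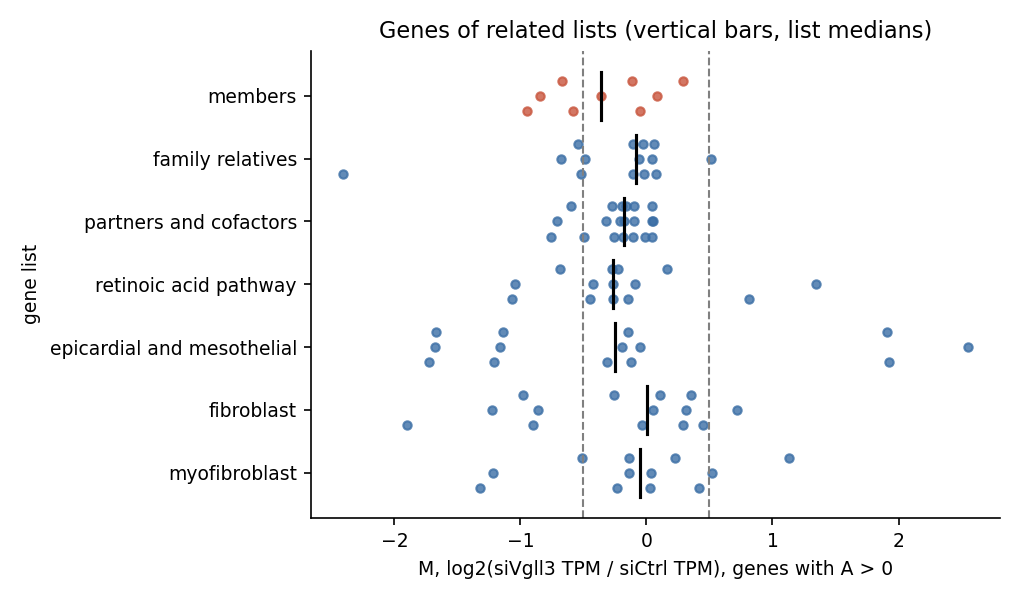
M of the genes with A > 0 in each list (points), the list medians (vertical bars) and the thresholds of −0.5 and 0.5 (dashed lines). The factors have a median of −0.36 with 4 of 9 below −0.5, the epicardial list −0.25 with 6 of 14, the retinoic acid list −0.27 with 3 of 14, the partners −0.18 with 3 of 20 and the relatives −0.08 with 4 of 14, which reach −2.41. Of all genes with A > 0, 11.4% lie below −0.5.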

How the data were processed

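RNA-seq of 1 siCtrl and 1 siVgll3 library of mouse cardiac myofibroblasts was analysed. The authors made libraries with a stranded mRNA kit and, per the labels, used FastQC, Trimmomatic, HISAT2 and StringTie with the mm10 build. Versions and the use of strand are not given in the sources used here. They deposited raw read counts per gene, with no normalization, and TPM per gene, scaled for gene length and library size, per the file headers. All per-sample columns were used. M, A and counting intervals (95%) were computed with numpy 2.4.6 and scipy 1.17.1, with nothing added before the logarithm. Threshold values were as on the axes of the MA plot of the study. How the study computed A is not given in the sources used here, so its A may differ. With A averaged after taking log2, 1313 genes were lower, against 1341 with the A used here. The interval of the count ratio was checked on simulated Poisson reads only. Such reads are independent by design, so that check says nothing about spread between cultures. edgeR 4.0.16 and DESeq2 1.42.0 served for scaling only. Nothing was tested for significance, since each condition had 1 library.

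Counts of 0 were read as listed. They can be failed estimates, since 1393 genes were listed at 0 reads in 1 library only, with up to 889 reads in the other. Coordinates are RefSeq's for GRCm38.p6, the assembly of mm10, and overlaps came from GENCODE vM21. The promoter table held 7 promoters of 5 of the 10 factors.

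The members and gene lists were chosen with earlier results of these data known. From each list of relatives, partners and pathway genes the 3 genes highest in siCtrl TPM and up to 4 with the largest absolute M past a threshold were named, with any gene a small count refers to. Some genes that this rule names are not reported here. Named outside that rule, after their values were seen, were the cell type markers, *Gata1*, *Gata2*, *Gata5*, *Mef2d*, *Meox2*, *Hand1*, *Zfpm2*, *Tcf3*, *Tcf12*, *Nkx2-5* and the genes listed at 0. The 9 differences between 2 factors or relatives have Wald intervals on the log counts. Alternatives were CPM, TMM and DESeq2 scaling, 0.1 or 1 TPM added, centred M, other filters on A or reads, another definition of A, and stricter thresholds.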

Additional observations from a re-analysis of the deposited data

How the results depend on the processing

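The 4 lower factors were *Tcf21*, *Tbx20*, *Mef2c* and *Wt1* with CPM, TMM scaling, DESeq2's size factors, 0.1 TPM or 1 TPM added, centred M, A averaged after taking log2 and the whole interval past the threshold. Without a filter on A, or with at least 10 reads in each library, *Tbx5* joined them (5 of 10 factors, against 14.9% and 13.7% of all genes), and with A > 2 *Mef2c* left the genes tested (3 of 7 factors, against 9.34%). With M beyond 1, 0 factors were lower, since the lowest M is −0.95. No factor was higher under any of these alternatives. The median M of the factors, −0.36, was −0.31 with CPM, −0.32 with TMM, −0.32 with DESeq2's size factors, −0.31 with centred M and −0.27 over 10 factors with 1 TPM added. It was −0.44 without a filter on A and with at least 10 reads, where *Tbx5* enters. Over the settings of scaling, added TPM and centring, M moved by over 1.5 times for *Tbx5* (−0.52 to −0.18), *Meox1* (0.16 to 0.35), *Hand2* (−0.11 to −0.06) and *Tbx18* (0.08 to 0.13), none of which changed sign, and for *Gata6* (−0.05 to 0.00039). The −0.18 of *Tbx5* and the 0.16 of *Meox1* came with 1 TPM added. No scaling moved the median of all genes by more than 0.1. Over all genes, 2103 were lower and 1428 higher without a filter on A, 1853 lower and 1159 higher with at least 10 reads, 928 lower and 393 higher with A > 2, 384 lower and 207 higher with M beyond 1, and 442 higher by the whole interval, against 1341 and 674. No paired analysis was possible because there was just 1 library of each kind. Depth limits *Tbx5* and *Meox1* most, at 103 to 185 reads a library.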

Other observations

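Some genes of the lists were listed at 0 reads in 1 library and have no M. *Nppb*, the natriuretic peptide gene that GATA4 is known to act on in cardiomyocytes, had 0 control reads and 66 after knockdown, while *Nppa* was listed at 0 in both. *Wt1os*, the antisense transcript next to *Wt1*, had 28 control reads and 0 after knockdown. *Tcf23*, a relative of *Tcf21*, had 13 and 0. *Kcnj8*, a potassium channel gene of pericytes, had 0 and 24. These values have no replicate, and 1393 of all genes were at 0 in 1 library only.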
